A study of Arabidopsis thaliana with 6 samples.

Results

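The chloroplast genome of Arabidopsis thaliana encodes subunits of the photosynthetic complexes and part of the machinery that expresses them, and its transcripts were compared here between leaf RNA of jmj16 plants and of wild type plants. The genes were chosen by their locus identifier, which begins with ATCG. This gave 88 loci of 27655, and 87 of them had the at least 20 reads over both libraries that were required for a comparison. JMJ16 removes methyl groups from histone H3 at lysine 4 (H3K4), a mark of nuclear chromatin, and the series title links it to leaf senescence. The series holds 6 samples, of which the 4 chromatin immunoprecipitation samples were not analysed here. The RNA came from 1 library of jmj16 (jmj16-1, the insertion line SAIL_535_F09) and 1 library of wild type, both in the Col-0 background. Plants of both genotypes spent 6 days on plates and were then moved to soil, at 22 °C and a day of 16 h light and 8 h dark. Fully expanded leaves 5 and 6 without visible yellowing were taken, at an age given as 4 weeks in one label and as 5 weeks in another. Each genotype has 1 library, so nothing below is checked by replicates and there are no p-values.

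A chloroplast carries many copies of a small circular genome, most of which is transcribed as long shared transcripts that are cut and trimmed afterwards. Photosystem II, photosystem I, the cytochrome b6f complex, the ATP synthase, the NDH complex and Rubisco are each built from chloroplast-encoded and nucleus-encoded subunits, and so is the chloroplast ribosome. A bacterial-type RNA polymerase, whose core is encoded in the chloroplast and whose sigma factors are encoded in the nucleus, works beside a phage-type polymerase encoded in the nucleus. In leaf senescence chloroplasts are dismantled early, and their proteins serve as a nitrogen source for the rest of the plant.

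The deposited tables list the loci without names. A locus was given the symbol of a RefSeq chloroplast gene (assembly TAIR10.1) of exactly the same length, which fitted 1 symbol alone for 59 loci. For 10 more, several genes share the length, and the standard locus numbering decided between them: psbA and psbD, atpH and psaC, ndhE and rps18, and petG, psaI, rpl36 and rps12. The remaining 19 loci had no gene of equal length and are given by their identifier only, with no role. They may include members of the complexes below, so counts, medians and shares per complex cover loci with a name only. In 7 cases a pair of loci had the same length and the same values in both libraries, so the reads of such a pair cannot be assigned to either copy, and the 88 loci give 81 distinct sets of values.

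The jmj16-labelled library held 13844253 counts and the wild type library 10643155. JMJ16 itself (AT1G08620) had 168 counts in the jmj16-labelled library and 188 in wild type, a log2 ratio of -0.63 (95% counting interval -0.94 to -0.33), which does not check the label. All 6 leaf mesophyll markers were read in both libraries, with a summed TPM (a length-scaled share of all transcripts) of 30915 in the jmj16-labelled library and 44253 in wild type, and CA1, a carbonic anhydrase, was the only one called lower (log2 ratio -1.99, -2.03 to -1.94). RBCS1A in that list is also a partner of Rubisco below. The 4 measurable floral and seed markers summed to 2.88 TPM in the jmj16-labelled library and 6.34 TPM in wild type. AP1 and CRA1 had 0 reads in the jmj16-labelled library and 1 and 23 in wild type, and CRA1 was called lower. The 3 guard cell markers summed to 16.8 TPM in the jmj16-labelled library and 24.4 in wild type, and KAT1 and FAMA were called lower. Of 7 vascular markers, with summed TPM of 131 and 167 in the same order, the xylem genes XCP1, XCP2 and CESA8 were called higher. They had 26, 91 and 18 counts in the jmj16-labelled library and 5, 21 and 2 in wild type. CESA4 and CESA7 were above 0 but not called. SUC2, with 112 and 148 TPM, and APL went the other way and were not called (log2 ratios -0.47, -0.54 to -0.40, and -0.60, -0.86 to -0.34). The 4 root and shoot apex markers summed to 9.98 TPM in the jmj16-labelled library and 8.31 in wild type, with WUS at 0 reads in both and STM at 0 and 1. The part of these cell types in the differences below was not tested.

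Chloroplast transcripts took a smaller share of the jmj16-labelled library. They held 215981 counts there, 1.56% of the library (95% Wilson interval 1.55 to 1.57), against 245021 counts or 2.30% (2.29 to 2.31) in wild type. On scaled counts the sum was 1.57-fold lower (log2 ratio -0.65, -0.66 to -0.65). Without atpB, the gene with most reads, the sum was still 1.46-fold lower (log2 ratio -0.55, -0.56 to -0.54). Mitochondrial genes took 0.0515% of the jmj16-labelled library and 0.0444% of wild type. In leaf RNA, fewer chloroplasts or mesophyll cells and less chloroplast RNA per cell cannot be told apart. Mature chloroplast transcripts lack long poly(A) tails, and how the libraries were enriched for messenger RNA is not given in the sources used here.

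Calls of higher or lower required a ratio of 2-fold or more whose counting interval excluded 1. Among the 87 measured chloroplast loci, 22 (25.3%) were called lower and 0 higher, where 10.6% of all 17151 measured genes were called lower and 7.22% higher. With each identical pair counted once, 17 of 80 were lower. The median log2 ratio of the 87 loci was -0.51 (-0.71 to -0.42, exact binomial interval over loci), against 0.02 over all measured genes. Of the 87, 75 lay below 0, and the counting interval lay wholly below 0 for 61, wholly above 0 for 5 and spanned 0 for 21.

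The log2 ratio varied with transcript length across all genes. Nuclear genes had a median of 0.09 under 300 nt, of 0.38 from 300 to under 1000 nt and of -0.05 from 1000 nt, so the loci were also set beside nuclear genes of like length. Under 300 nt, 6 of 30 chloroplast loci and 6.35% of 63 nuclear genes were lower. From 300 to under 1000 nt the shares were 27.3% of 33 and 4.37% of 2630, and from 1000 nt they were 29.2% of 24 and 11.7% of 14309. All 88 deposited chloroplast lengths are multiples of 3 and were taken as lengths of coding sequence, whole or in part, shorter than the transcripts. After subtraction of the length trend 26 loci were lower and 0 higher (6.64% and 6.21% of all genes), of which 19 were also lower without it, and the median was -0.75.

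**Figure D1:**
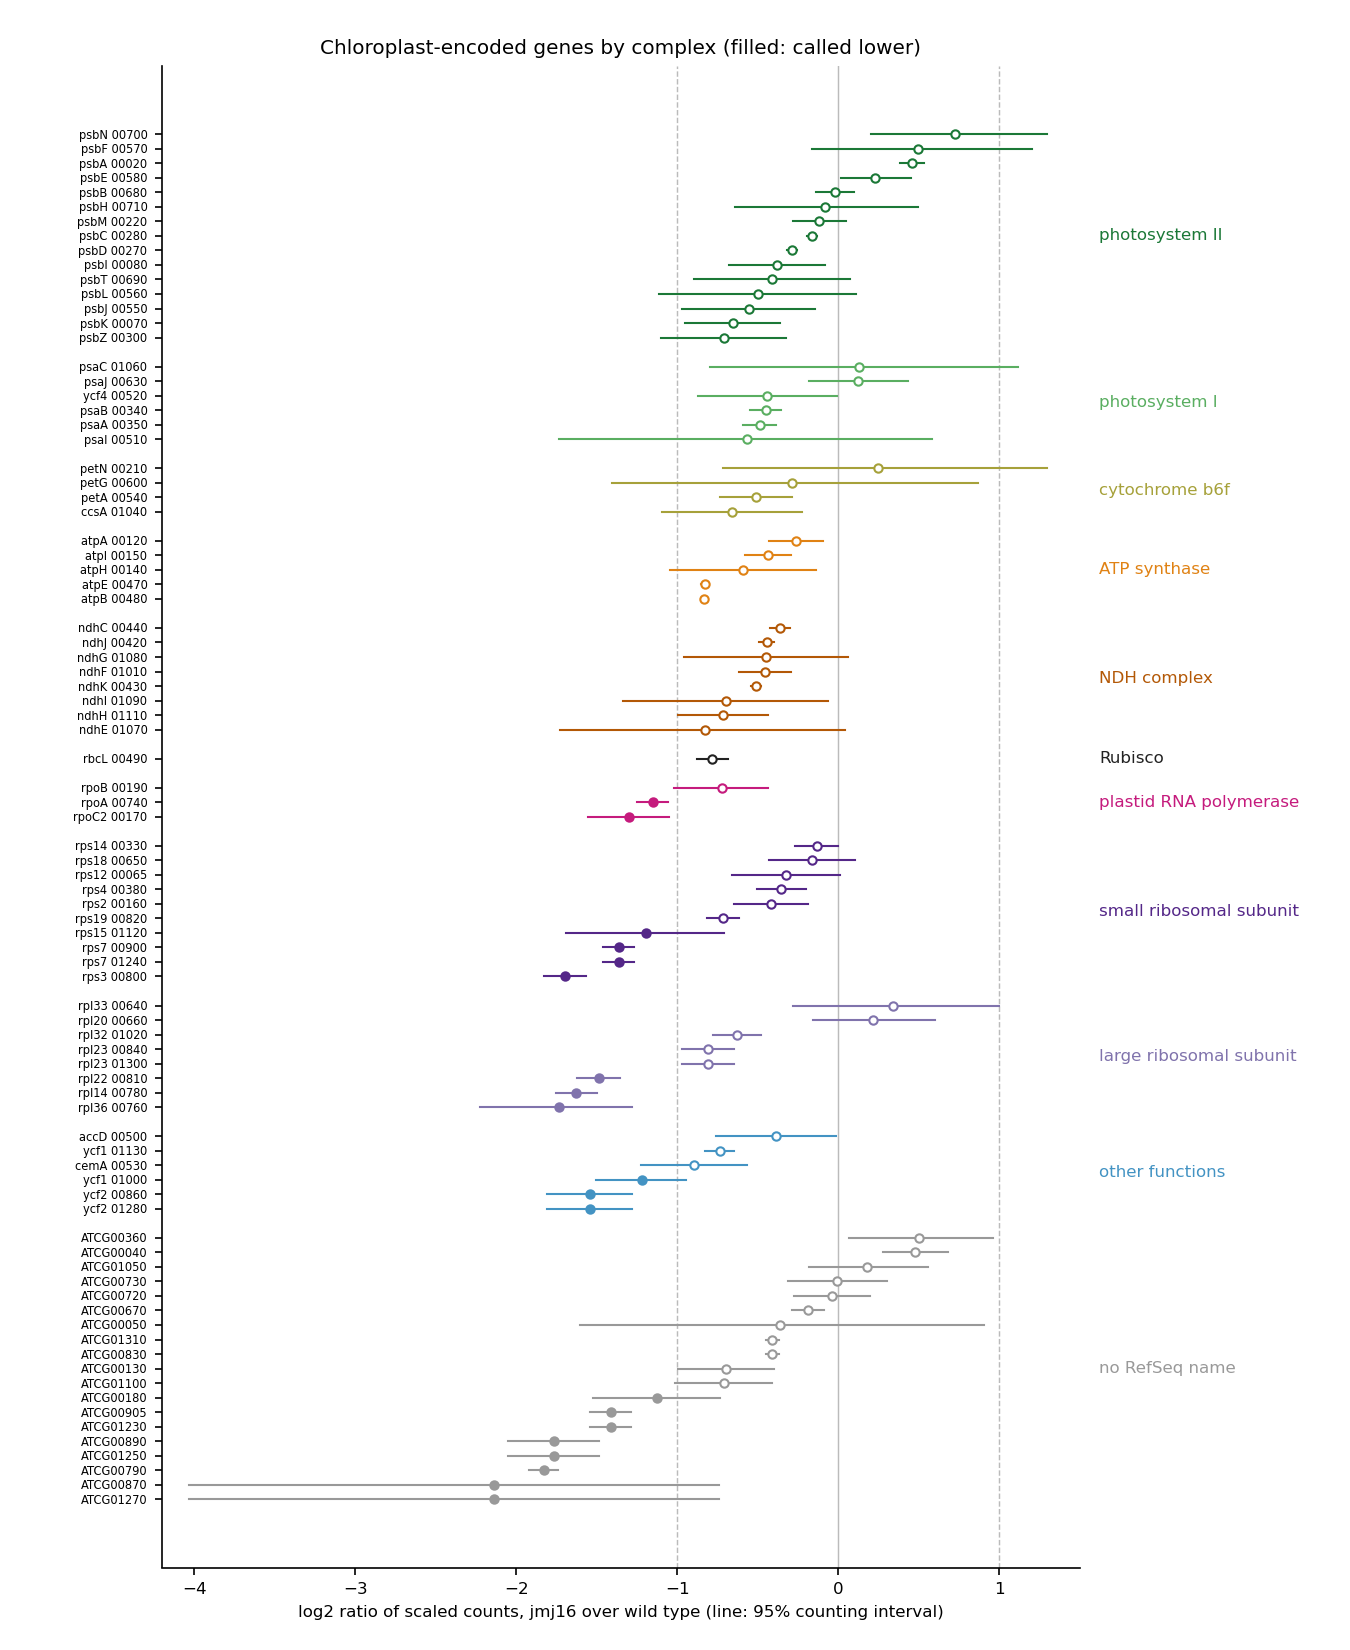
log2 ratio of scaled counts, jmj16-labelled library over wild type (x axis), of 85 measured chloroplast loci (rows, with the locus number after the symbol), grouped by complex. Points are ratios, lines their 95% counting intervals and filled points the 20 of these loci called lower. None of the filled points is a named member of a photosynthetic complex, and loci without a name form a group of their own.

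The called loci with a name were genes of gene expression and of other functions, and none belonged to a photosynthetic complex. None of 39 measured and named members of the photosynthetic complexes (with the assembly factor ycf4 and ccsA of c-type cytochrome synthesis) was called. Their median log2 ratio was -0.45 (-0.51 to -0.29). Of 23 measured and named loci for the RNA polymerase and the ribosome, 11 were called lower and 0 higher, with a median of -0.81 (-1.36 to -0.42). Over all measured genes 10.6% were called lower and 7.22% higher. Both copies of rps7, called lower, and of rpl23, not called, are counted among these loci with identical values. The 8 called loci without a name could belong to either set or to neither, so these counts may be incomplete. At 1.5-fold, which 19.6% of all measured genes passed as lower and 16.4% as higher, 9 of the 39 and 16 of the 23 were lower, and psbN was the only one higher. With 1 library a genotype, the difference between these groups of genes has no test.

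Photosystem II, which splits water, had the widest spread among the photosynthetic complexes, over the genes with a name. Its 15 members ranged from a log2 ratio of -0.71 to 0.73, with a median of -0.17 (-0.50 to 0.23) and 0 called. psbD, the D2 reaction centre protein, had 18314 counts in the jmj16-labelled library and 16124 in wild type (log2 ratio -0.29, -0.32 to -0.26). psbC, the CP43 inner antenna, had 18637 and 15086 counts in the same order (-0.17, -0.20 to -0.14). psbA, which encodes the D1 reaction centre protein that is replaced often in the light, had 4194 counts in the jmj16-labelled library and 2202 in wild type. Its log2 ratio of 0.46 (0.38 to 0.53) had an interval above 0 but did not reach 2-fold. psbB, the CP47 antenna, had 1396 and 1023 counts (-0.02, -0.14 to 0.09). D1 and D2 form the core of the same reaction centre, and their genes had ratios on opposite sides of 0 on these scaled counts and after length correction (0.18 for psbA and -0.56 for psbD), but both above 0 when scaled to the sum of chloroplast counts.

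Small subunits of photosystem II were spread across the same range on fewer reads. psbE and psbF, the subunits of cytochrome b559, had log2 ratios of 0.23 (0.01 to 0.45) and 0.49 (-0.17 to 1.20), from 462 and 57 counts in the jmj16-labelled library against 284 and 29 in wild type. psbM had 684 counts in the jmj16-labelled library and 536 in wild type (-0.12, -0.29 to 0.05). psbN, an assembly factor, had 97 and 42 counts and the highest ratio of all 87 loci (0.73, 0.20 to 1.29). It lies on the strand opposite its neighbours of the psbB cluster, and without a stated strand setting its reads cannot be told apart from theirs. The lowest ratios of the complex were those of psbZ (-0.71, -1.10 to -0.33) and psbK (-0.66, -0.95 to -0.36).

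Photosystem I, which reduces ferredoxin, had 6 measured and named members with a median of -0.45 (-0.57 to 0.13) and 0 called. psaA, of the reaction centre heterodimer, had 1587 counts in the jmj16-labelled library and 1606 in wild type (-0.49, -0.59 to -0.39). Its partner psaB had 1819 and 1794 (-0.45, -0.55 to -0.36). These values differ by less than their counting error. psaJ, a small subunit, and psaC, the iron-sulfur subunit, had ratios of 0.12 (-0.18 to 0.43) and 0.13 (-0.80 to 1.12), where psaC had only 26 counts in the jmj16-labelled library and 17 in wild type and turned to -0.04 after length correction. The cytochrome b6f complex, which carries electrons between the photosystems, had few reads. petA, cytochrome f, had 322 counts in the jmj16-labelled library and 331 in wild type (-0.51, -0.74 to -0.29), and ccsA had 86 and 98 (-0.66, -1.09 to -0.23). petL, with 7 and 11 counts, was the 1 locus too low to be measured.

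The ATP synthase genes held the largest part of chloroplast counts, 44.5% in the jmj16-labelled library and 50.3% in wild type. atpB, the catalytic beta subunit, had 74207 counts in the jmj16-labelled library and 95487 in wild type, a log2 ratio of -0.84 (-0.85 to -0.82) or 1.78-fold lower. atpE, the epsilon subunit encoded next to it, had 20468 and 26224 counts and the nearly equal ratio of -0.83 (-0.86 to -0.80). Neither reached 2-fold. The other measured subunits lie in another cluster and had ratios nearer to 0: atpA, the alpha subunit, had 618 counts in the jmj16-labelled library and 535 in wild type (-0.26, -0.43 to -0.09), and atpI had 836 and 816 (-0.44, -0.58 to -0.30). The intervals of atpA and atpI do not reach those of atpB and atpE, but that of atpH, on 81 counts in the jmj16-labelled library and 88 in wild type, covers them (-0.59, -1.04 to -0.14). After length correction atpE passed the rule as lower (log2 ratio -1.14).

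The Rubisco gene and the NDH genes with a name had ratios below 0. rbcL, the large subunit of Rubisco, had 1643 counts in the jmj16-labelled library and 2038 in wild type (-0.78, -0.88 to -0.69), 1.72-fold lower and short of the rule. The NDH complex carries electrons around photosystem I. All 8 of its measured genes with a name had ratios below 0, from -0.83 to -0.36, with a median of -0.49 and 0 called. The genes ndhA, ndhB and ndhD were matched to no locus by length and are not among them. ndhK had 14151 counts in the jmj16-labelled library and 14556 in wild type (-0.51, -0.55 to -0.48). ndhJ, beside it, had 6872 and 6752 (-0.45, -0.49 to -0.40). ndhE and ndhI, which have at most 48 counts in either library, passed as lower after length correction (log2 ratios of -1.06 and -1.07).

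**Figure D2:**
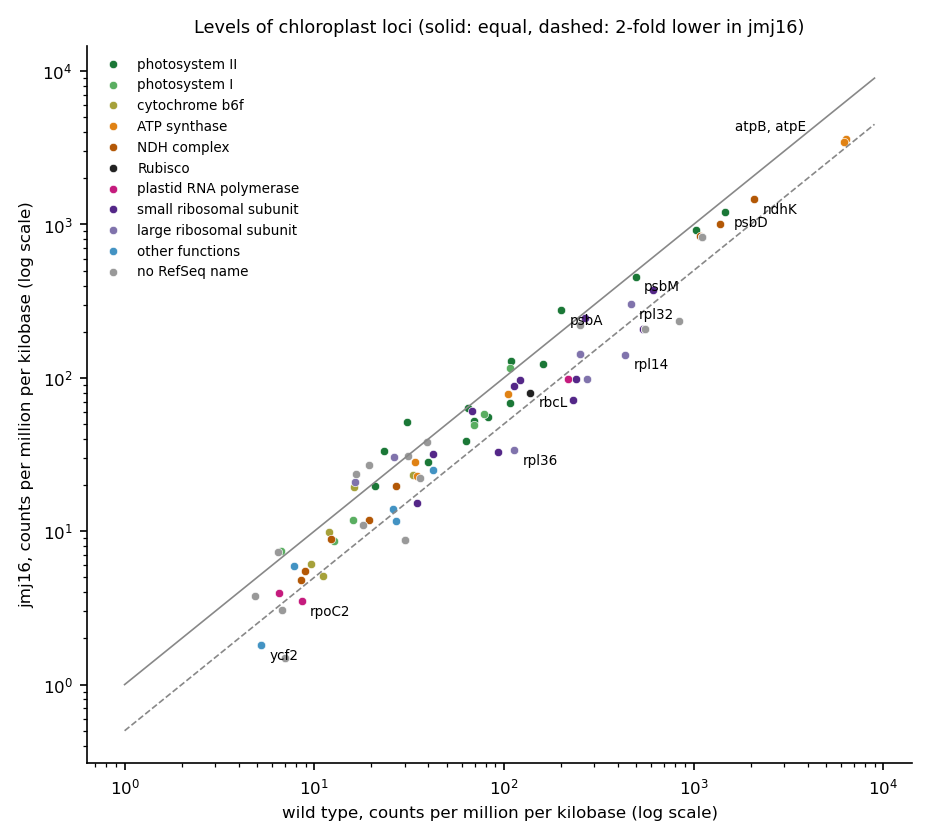
Scaled counts as CPM (a rate within the library) per kilobase of the deposited length in wild type (x axis) and in the jmj16-labelled library (y axis), both on log scales, of all 88 chloroplast loci (points, coloured by complex). The solid line marks equal levels and the dashed line 2-fold lower in the jmj16-labelled library. atpB and atpE lie at the top and between the lines, while rpl14, rpl36, rpoC2 and ycf2 lie below the dashed line.

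Levels per length spread far more widely among the loci than any ratio between the libraries. Scaled counts as CPM per kilobase of deposited length ran from 1.49 to 3589 in the jmj16-labelled library and from 4.85 to 6376 in wild type. On that scale atpE had 3589 in the jmj16-labelled library and 6376 in wild type, and atpB had 3468 and 6188, the highest levels in both. Next in both came ndhK, with 1460 in the jmj16-labelled library and 2083 in wild type, and psbD, with 1206 and 1473. rbcL had 79.8 in the jmj16-labelled library and 137 in wild type, and ycf2 had 1.80 and 5.24. By TPM the order was different: psbM had 8996 TPM in the jmj16-labelled library and 9310 in wild type, beside 8288 and 14023 TPM for atpE. The 105 nt of psbM count as an effective length of only 4.62 nt in the deposited tables, against 150 nt for atpE, so the TPM of such short genes is set mainly by that estimate. The ratios between libraries do not depend on it, because the effective lengths are the same in both tables.

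Of 3 genes of the chloroplast RNA polymerase with a name, 2 were lower. rpoA, the alpha subunit, had 1385 counts in the jmj16-labelled library and 2223 in wild type and was 2.23-fold lower (2.08 to 2.38). rpoC2, of the beta'' subunit, had 206 and 366 counts and was 2.46-fold lower (2.07 to 2.94). rpoB, the beta subunit, had 181 counts in the jmj16-labelled library and 216 in wild type (log2 ratio -0.73, -1.02 to -0.43) and did not pass. rpoC2 and rpoB are among the longest chloroplast genes, and after length correction their log2 ratios were -0.36 and -0.06, so that rpoC2 no longer passed, while rpoA did (-1.45).

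Ribosomal protein genes held most of the called loci with a name. Over both subunits 20 loci with a name were measured and 9 were lower, where 10.6% of all measured genes were lower. The median log2 ratio of these loci was -0.81 (-1.36 to -0.35). Both copies of rps7 (called) and of rpl23 (not called) are counted, with identical values. In the small subunit rps3 had 674 counts in the jmj16-labelled library and 1575 in wild type and was 3.24-fold lower (2.96 to 3.55). rps7 had 1399 and 2598 at each of its 2 copies (2.57-fold lower, 2.41 to 2.75). rps15 had 58 counts in the jmj16-labelled library and 96 in wild type and was 2.29-fold lower (1.64 to 3.24). The small subunit decodes messenger RNA, and its 6 measured loci that were not called had log2 ratios from -0.72 for rps19 to -0.14 for rps14.

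In the large subunit rpl36 had 55 counts in the jmj16-labelled library and 133 in wild type and was 3.34-fold lower (2.43 to 4.68), the lowest ratio of any locus with a name. rpl14 had 745 and 1660 counts (3.09-fold lower, 2.83 to 3.37), and rpl22 had 674 and 1365 (2.81-fold lower, 2.56 to 3.08). rpl32, of the same subunit, had 685 counts in the jmj16-labelled library and 764 in wild type (log2 ratio -0.63, -0.78 to -0.48). rpl20 and rpl33 were on the other side of 0, with ratios of 0.22 (-0.16 to 0.60) and 0.34 (-0.28 to 1.00), of which that of rpl20 turned to -0.06 after length correction.

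Several of the called ribosomal genes lie together on the chloroplast genome. In the order of RefSeq, rpoA, rpl36, rpl14, rps3, rpl22, rps19 and rpl23 lie in 1 stretch, and they are known as parts of a cluster that is transcribed together. Of these 7 genes 5 were lower, and their log2 ratios ran from -1.74 to -0.72 with a median of -1.49. The exceptions were rps19 (1481 counts in the jmj16-labelled library and 1754 in wild type, -0.72) and rpl23 (579 and 732 at each copy, -0.81), which stand at one end of the stretch. ATCG00790 and ATCG00830, without a name, have locus numbers within the stretch. ATCG00790 was lower (-1.83), while ATCG00830, on 9800 and 9394 counts at each copy, was not called (-0.41, -0.45 to -0.37). The 55 measured genes with a name and a distinct value outside the stretch held 5 lower ones and had a median of -0.45. Of ycf1 only the shorter locus, called lower, is among them, and the longer locus (-0.74, not called) was left out. At the other end, psbH (-0.08, -0.64 to 0.49) is the nearest gene with a name beyond rpoA.

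**Figure D3:**
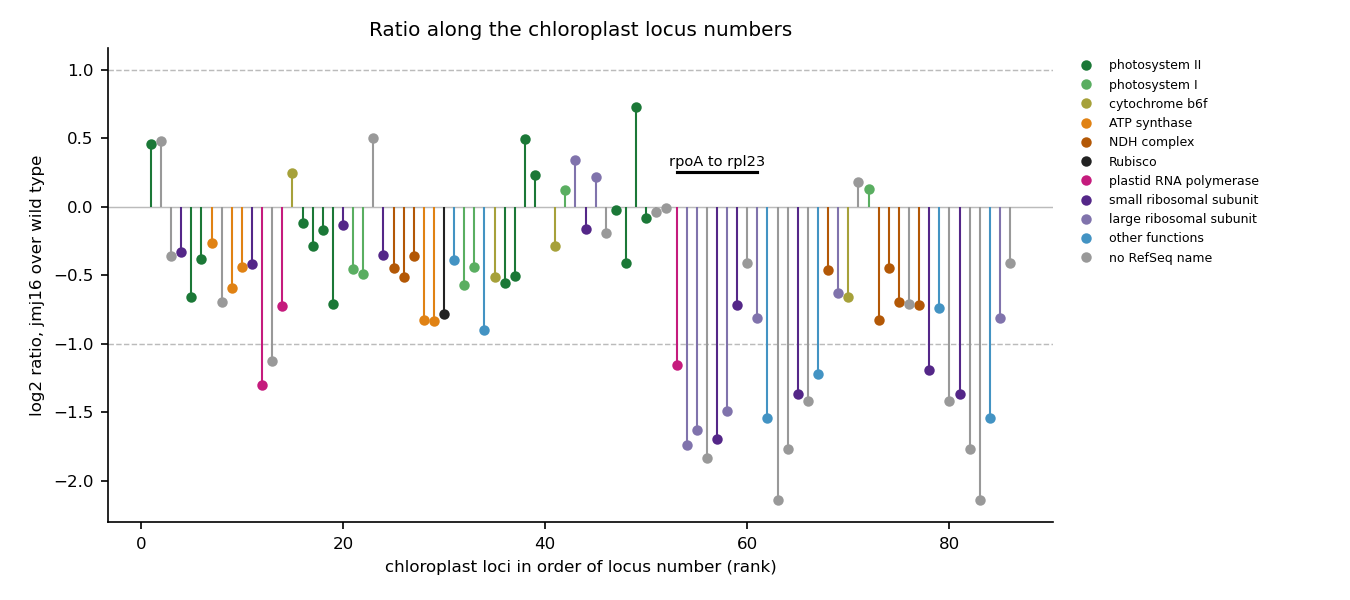
log2 ratio, jmj16-labelled library over wild type (y axis), of 85 measured chloroplast loci in the order of their locus numbers (x axis, rank), coloured by complex. The black bar marks the stretch from rpoA to rpl23, where the 7 genes named in the text have ratios from -1.74 to -0.72. ATCG00790 and ATCG00830, without a name, also fall within the bar, with ratios of -1.83 and -0.41.

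Genes that are known to be transcribed together differed among themselves to very unequal degrees. Over 13 such groups with 2 or more measured genes with a name, the smallest range of log2 ratios within a group was 0.0062 for atpB and atpE, followed by 0.12 for psbD and psbC and by 0.15 for ndhC, ndhK and ndhJ. The largest ranges were 1.05 for psbE, psbF, psbL and psbJ, with at most 462 counts each, 1.02 for the cluster from rpoA to rpl23 and 0.95 for the group from ndhH to psaC. That last range is set by ndhE, with 21 counts in the jmj16-labelled library and 27 in wild type, and psaC, with 26 and 17. The counting intervals of ndhE (-1.73 to 0.04) and psaC (-0.80 to 1.12) overlap. Genes of a group share transcripts and neighbouring reads, so they are not independent measurements.

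The chloroplast genome carries a large inverted repeat, and genes in it have a pair of copies. Of the 7 identical pairs 5 were lower, with a median log2 ratio of -1.41 and a range from -2.14 to -0.41. Of the 73 other measured loci 12 were lower, with a median of -0.45, where 10.6% of all measured genes were lower. ycf2, which is described as part of a motor of chloroplast protein import, had 177 counts in the jmj16-labelled library and 372 in wild type at each copy and was 2.91-fold lower (2.43 to 3.51). After length correction its log2 ratio was -0.19 and it no longer passed, since its coding length of 6885 nt is the longest of all. ycf1, described as a part of the import channel, has 2 loci of unequal length. The shorter had 171 counts in the jmj16-labelled library and 288 in wild type (2.33-fold lower, 1.93 to 2.84) and the longer 1933 and 2325 (log2 ratio -0.74, -0.83 to -0.65), which turned to 0.43 after length correction. Their counts are not whole, so reads were divided between loci.

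The other genes with a name were not called. accD, a subunit of the acetyl-CoA carboxylase of fatty acid synthesis, had 125 counts in the jmj16-labelled library and 118 in wild type (-0.39, -0.76 to -0.01). cemA, a protein of the inner envelope, had 137 and 184 (-0.90, -1.23 to -0.57), and passed as lower after length correction (-1.28).

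Of the 19 loci without a RefSeq name 8 were lower and 11 were not called, where 10.6% of all measured genes were lower. These loci held 15 distinct sets of values, and both loci of each identical pair enter the counts and the median. Their median log2 ratio was -0.70 (-1.76 to -0.04). ATCG00790, whose number falls between those of rpl14 and rps3, had 1378 counts in the jmj16-labelled library and 3530 in wild type and was 3.55-fold lower (3.34 to 3.78). The pair ATCG00890 and ATCG01250 had 147 and 361 counts each (3.40-fold lower, 2.80 to 4.15). The pair ATCG00870 and ATCG01270 had the lowest ratio of all (-2.14, -4.03 to -0.74), on 5 counts in the jmj16-labelled library and 17 in wild type at each copy. The pair ATCG00905 and ATCG01230 was 2.66-fold lower (2.44 to 2.91) and ATCG00180 2.18-fold lower (1.67 to 2.88). On the other side, ATCG00360 and ATCG00040 had log2 ratios of 0.50 (0.06 to 0.96) and 0.48 (0.28 to 0.68).

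Nucleus-encoded partners of the same complexes were set beside the chloroplast genes. Of 104 such genes, 5 (4.81%) were lower and 0 higher, where 10.6% and 7.22% of all measured genes were, and the median was -0.36 (-0.46 to -0.28). After length correction 12 were lower and 1 higher, where 6.64% and 6.21% of all genes were, and the median was -0.62 (-0.68 to -0.56). For the photosynthetic complexes the uncorrected median was -0.45 over the 39 chloroplast genes with a name, of which 0 were lower. Over 50 nuclear genes it was -0.50 (-0.60 to -0.38), with 2 lower. With the correction it was -0.52 over the chloroplast genes, with 3 lower, and -0.75 over the nuclear genes, with 10 lower. The 2 nuclear genes lower without it were RBCS2B, a small subunit of Rubisco (log2 ratio -1.12, -1.15 to -1.09), and PnsB3 of the NDH complex (-1.01, -1.19 to -0.83). For the ribosome the uncorrected median was -0.81 over the 20 chloroplast loci with a name, of which 9 were lower. Over 34 nuclear genes it was -0.25 (-0.34 to -0.12), with 1 lower. With the correction it was -1.01 over the chloroplast loci, with 11 lower, and -0.54 over the nuclear genes, with 1 lower. The nuclear gene lower without it, AT5G24490, carries no symbol in RefSeq and had 4577 counts in the jmj16-labelled library and 9345 in wild type (-1.50, -1.55 to -1.45).

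All 6 sigma factors, which direct the chloroplast-encoded polymerase to its promoters, had ratios below 0, from -1.26 to -0.39 with a median of -0.84. SIG2 was the 1 that passed, with 443 counts in the jmj16-labelled library and 764 in wild type (log2 ratio -1.26, -1.43 to -1.09), and it also passed after length correction (-1.17). Of 12 proteins that associate with this polymerase, PTAC3 was lower (384 counts in the jmj16-labelled library and 556 in wild type), the median was -0.16 and the ratios reached 0.56 for FSD2. With the length trend removed, PTAC3 had a log2 ratio of -0.39 and was not called. The phage-type polymerase genes SCA3 and AT5G15700 had log2 ratios of 0.25 (-0.10 to 0.61) and -0.09 (-0.67 to 0.50) and were not called. After length correction SCA3 passed as higher (1.05).

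**Figure D4:**
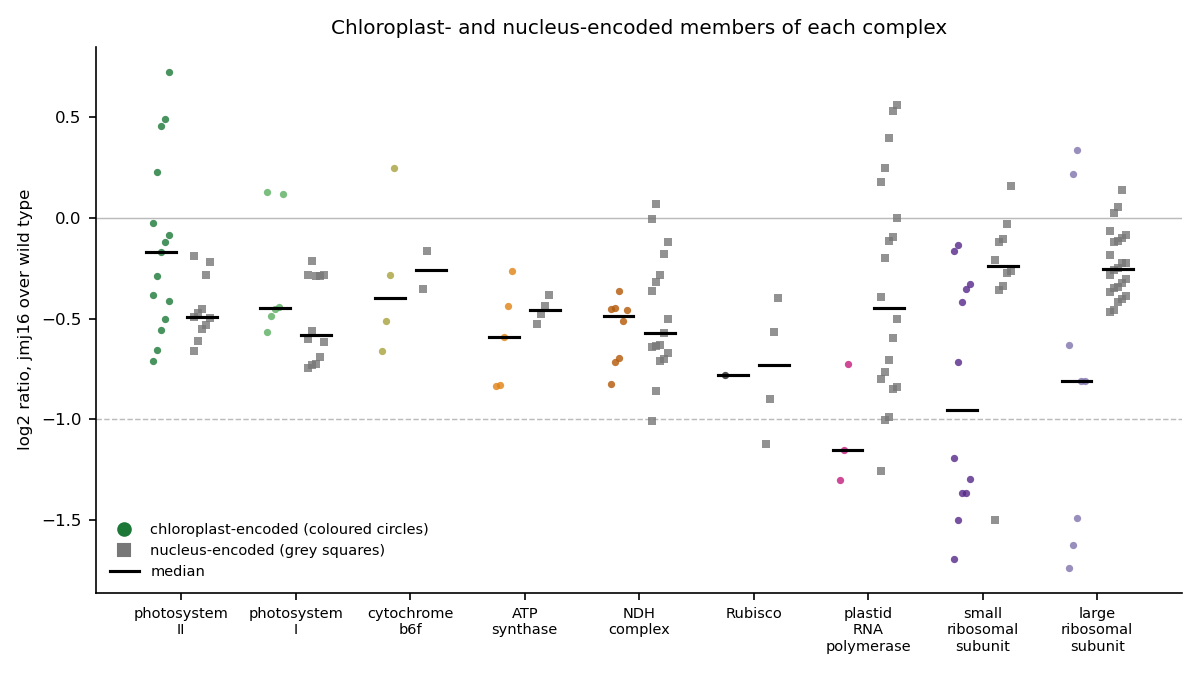
log2 ratio, jmj16-labelled library over wild type (y axis), of measured genes of each complex (x axis), with black bars for medians. Coloured circles (left) are chloroplast-encoded genes with a name and grey squares (right) are nucleus-encoded genes. The medians of the ribosomal subunits are -0.95 and -0.81 for chloroplast genes and -0.24 and -0.25 for nuclear genes.

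Within chloroplast counts alone, the shares of several complexes differed. Photosystem II took 20.7% of chloroplast counts in the jmj16-labelled library (95% Wilson interval 20.5 to 20.8) and 14.7% (14.6 to 14.9) in wild type. psbC took 8.63% in the jmj16-labelled library and 6.16% in wild type, psbD 8.48% and 6.58%, and psbA 1.94% and 0.899%. The small ribosomal subunit took 3.87% (3.79 to 3.95) in the jmj16-labelled library and 5.00% (4.92 to 5.09) in wild type, and the large subunit 1.64% (1.58 to 1.69) and 2.25% (2.19 to 2.31). Such shares depend on the most read gene, atpB, which took 34.4% of chloroplast counts in the jmj16-labelled library and 39.0% in wild type.

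**Figure D5:**
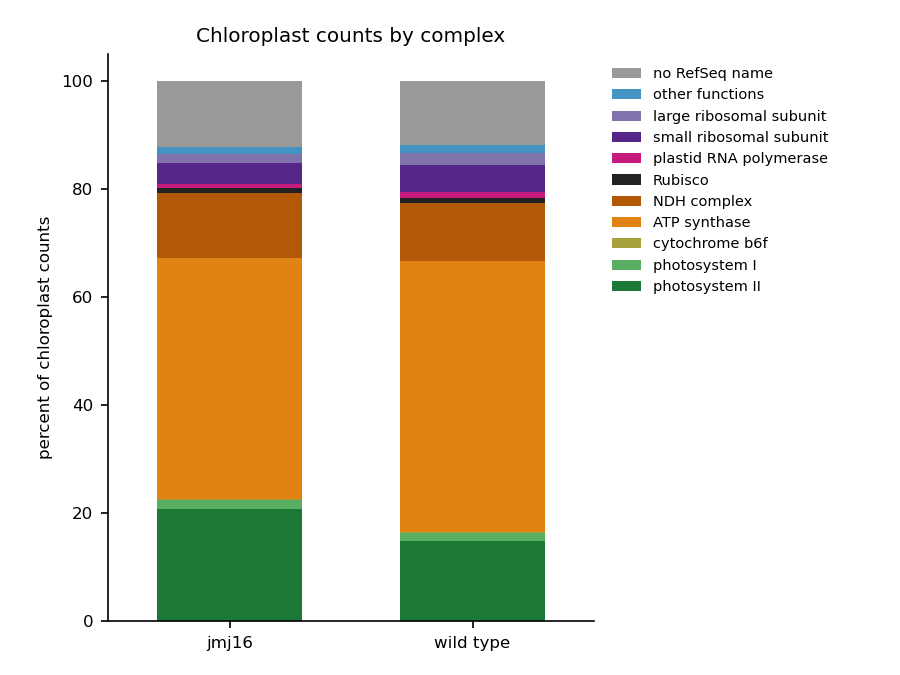
Percent of all chloroplast counts (y axis) by complex (stacked colours) in the jmj16-labelled library and in wild type (x axis). The ATP synthase takes 44.5% and 50.3%, photosystem II 20.7% and 14.7%.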

How the data were processed

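Leaf RNA of 1 jmj16 and 1 wild type library was used. The authors deposited an estimated count for each transcript, not always whole, and a TPM value scaled by effective length and library total, in the layout of Salmon per the file headers. Per the submitters' processing notes, the build is TAIR10 and the tools named for the series are Bowtie2, deepTools, SAMtools, TopHat2 and Salmon. No source used here states strandedness, read layout or poly(A) selection. Because the reference is TAIR10.1, no coordinates are printed.

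Counts were summed per locus over 48359 transcripts (1 per chloroplast locus) and rounded. Scaling used TMM factors of 1.03 (jmj16) and 0.969 (wild type) from edgeR 4.0.16 (R 4.3.3), for scaling only. The log2 ratio, jmj16 over wild type, had 0.5 added to each count. Intervals of ratios are Clopper-Pearson and those of shares Wilson, both at 95%. Intervals of counts and shares cover counting error only, since reads are not independent molecules. A list's interval is exact binomial over members, or the range under 6 members. The length trend is a lowess fit of the log2 ratio on log10 length (span 0.3, statsmodels 0.14.6). The procedure was tested on simulated data.

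The plan was to name loci by protein length and to place the rest under other functions. RefSeq gene length was used instead, and loci without a match form a group of their own. Named loci were all called members, the 2 most read of each complex, the 5 highest and 5 lowest ratios and the 5 highest TPM. Loci given beyond this rule were chosen after their values were seen. The lists of nuclear partners, cell type markers and jointly transcribed genes are from general knowledge, with symbols from RefSeq. Members and lists were chosen with earlier results of these data known. A few loci are not reported by name here and are left out of the plots by complex and by locus order. The floral marker SEP1 matched several loci and was not used. Alternatives were median-of-ratios (DESeq2 1.42.0), total-count, upper-quartile and within-chloroplast scaling, log2(TPM + 1), an added count of 5, no minimum or 100 reads, length correction, other folds and leaving out atpB.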

Additional observations from a re-analysis of the deposited data

How the results depend on the processing

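The count of 22 lower and 0 higher loci was the same with scaling by upper quartile, total counts or median of ratios, an added count of 5, no minimum, the most abundant transcript alone and without atpB. With log2(TPM + 1) 21 were lower, with at least 100 reads 20, with length correction 26 and with an interval wholly beyond 2-fold 17, with 0 higher in each. At 1.5-fold 40 were lower and 1 higher, and at 4-fold 2 were lower. Chosen after seeing the data, counting identical pairs once left 17 lower, and keeping the loci named by a unique length left 13, as it drops loci.

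Scaling to the sum of chloroplast counts, which sets that sum equal by construction, gave 7 lower and 5 higher loci (psbA, psbF, psbN, ATCG00040 and ATCG00360 higher) and turned the median from -0.51 to 0.14. It gave medians of 0.49 for photosystem II, 0.21 for photosystem I, 0.26 for cytochrome b6f, 0.063 for the ATP synthase and 0.17 for NDH, all 5 of which were below 0 before. psbD then had a log2 ratio of 0.37 and psbA of 1.11. It gave -0.13 for rbcL, -0.50 for the RNA polymerase and -0.30 for the small ribosomal subunit. Length correction gave medians of -0.75 for all loci, -0.86 for NDH, -0.93 for rbcL, -0.36 for the RNA polymerase and -0.36 for the other functions. The share of chloroplast genes was 6.91% of TPM in jmj16 and 10.0012% in wild type, and without atpB 1.02% and 1.40% of counts.

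No paired analysis was possible because there is 1 library a genotype. Low counts limit petL, petG, petN, psaI, psaC, ndhE, ATCG00050 and ATCG00870, among others.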

Other observations

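The mitochondrial genome, the other organelle genome, had 62 measured genes, of which 13 were higher and 11 lower, where 7.22% of all measured genes were higher and 10.6% lower. Their median log2 ratio was 0.46 (-0.28 to 0.69). After length correction the balance turned round, with 6 higher and 14 lower (6.21% and 6.64% of all genes) and a median of 0.17 (-0.39 to 0.41). Summed over all 122 mitochondrial loci, measured or not, the counts were 7128 in the jmj16-labelled library and 4722 in wild type (log2 ratio 0.12, 0.07 to 0.18).

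Counts that are not whole, a sign that reads were divided among loci, were found at 13 chloroplast loci, 6 of them in identical pairs. The other 7 were psbC, psbD, atpB, rbcL, ndhF and the 2 loci of ycf1.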
